A study of Mus musculus with 384 samples.

Results

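Proteasome subunit genes were examined in mouse bone-marrow-derived macrophages, which are cells grown from marrow under macrophage growth factor. Members were the rows of the count table whose symbol begins with Psma, Psmb, Psmc, Psmd, Psme or Psmf and a number, apart from the immunoproteasome genes Psmb8, Psmb9 and Psmb10. The rule took 42 of 23481 rows, and 41 of the 42 passed the filter on low counts. The mice were male C57BL/6 of 13 weeks, either Myd88 knockout (KO) or wild type (WT). Myd88 is an adaptor protein that carries signals from the interleukin 1 receptor and from most members of the Toll-like receptor family. Cells of both genotypes received a pool of reporter viruses on day 4 of culture and were replated on day 9. Each genotype had 2 replicates (1 and 2) of 96 wells, with 1 well for each of 12 ligands at 0, 0.5, 1, 1.5, 2, 2.5, 3 and 4 h. The labels give the replicate number, and each replicate is read here as 1 plate of 96 wells. The ligands were LPS (bacterial lipopolysaccharide), MDP with LPS (MDP/LPS), Zymosan (a yeast wall preparation), Poly(I:C) (a synthetic analogue of double-stranded RNA), SeV, Pam3Cys (a synthetic lipopeptide), R848, CpG, FLA, MDP, TDB and HT-DNA, spelled as in the labels. Nothing in the labels ties the plates to separate mice, and each genotype was on its own plates. Genotype and plate therefore cannot be told apart, and p-values measure the spread between plates, which may be technical.

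The proteasome is the barrel-shaped protease that degrades proteins tagged with ubiquitin. Its 20S core consists of alpha rings, which gate the entry, and beta rings, which hold the cutting sites. The 19S cap binds ubiquitin, unfolds the substrate with a ring of ATPases and feeds it into the core. PA28, built from Psme1 (alpha) and Psme2 (beta), is another cap that uses no ATP and is known as an interferon-inducible activator linked to the supply of peptides for MHC class I. Of the 42 members, 31 were core subunits, namely 7 alpha and 7 beta genes of the 20S core and 6 ATPase and 11 non-ATPase genes of the 19S cap. The activators were 4 genes, Psme1 to Psme4. The other members were the assembly chaperones Psmd5, Psmd9 and Psmd10, the inhibitor Psmf1, the testis form Psma8, the thymus form Psmb11, and Psmc3ip, a recombination factor that shares only the letters of the symbol. Psma8, with 187 counts over all wells, was the member that the filter left out.

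The start regions of the PA28 pair are shown because the 2 genes carry the contrast described below. Both lie on chromosome 14 (mm10). Psme1 runs on the plus strand from 55578123 to 55581529 and Psme2 on the minus strand from 55587441 to 55591113, so that their 3′ ends face each other 5912 bases apart. Psme1 shares its last 14 bases with the facing gene Emc9, which had 3.99 CPM (counts scaled to the library total) over all wells, where Psme1 had 187 CPM. The sequences run 5′ to 3′ from 250 bases before to 50 bases after the RefSeq start (GRCm38.p6), and capitals mark the interferon-stimulated response element, read as the letters GAAA, any 2 bases and GAAA again, searched on both strands.
Psme1, chr14:55578244-55578543, plus strand: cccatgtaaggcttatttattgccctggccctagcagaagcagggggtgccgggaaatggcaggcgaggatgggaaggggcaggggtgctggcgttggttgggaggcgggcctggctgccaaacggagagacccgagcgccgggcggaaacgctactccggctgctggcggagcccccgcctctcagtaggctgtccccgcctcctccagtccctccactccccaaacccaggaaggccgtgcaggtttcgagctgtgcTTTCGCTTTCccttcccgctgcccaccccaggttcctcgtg
Psme2, chr14:55591052-55591351, minus strand: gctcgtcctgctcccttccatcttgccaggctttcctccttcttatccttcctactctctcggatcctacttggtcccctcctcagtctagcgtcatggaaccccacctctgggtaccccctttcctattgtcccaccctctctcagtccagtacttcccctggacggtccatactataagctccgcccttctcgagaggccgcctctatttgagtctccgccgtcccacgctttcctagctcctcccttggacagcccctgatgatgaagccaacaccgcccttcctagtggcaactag
The Psme1 window lies inside the Psme1 span given above, whose source places the start further upstream. In Psme1 the letters stand on the reverse strand from base 10 after the RefSeq start, and they are not in this Psme2 window. They occurred in 3.44% of 32851 start windows of the reference and in 4 of 38 windows of the 35 members with an entry, those of Psme1, Psmb3, Psmd4 and Psmd9. The letters of the antioxidant response element, TGACNNNGC, occurred in 12.4% of all windows and in 4 of 27 core windows, those of Psmb5, Psmb6, Psmc6 and Psmd12. A match describes letters and shows no binding.

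Wells held 71720 to 767167 counts, with a median of 342561. Myd88 tags stood at 15.1 and 18.2 CPM over all wells of the KO plates, against 45.9 and 47.7 CPM in the WT plates, and the deleted part of the gene is not given in the sources used here. Macrophage markers summed to 3180 to 3290 CPM in KO plates and 3310 to 3370 CPM in WT plates, from 7 of 8 listed markers. Markers of T cells, B cells, neutrophils, dendritic cells and fibroblasts each summed to 12.9 CPM or less per plate, with Cd3g, Flt3 and Col3a1 at 0. The reads are tags of the transcript 3′ end, so CPM was compared between genes without a correction for length. Over all wells the core genes stood between 27.5 CPM (Psmc5) and 987 CPM (Psma7), with Psmd1 at 936 CPM. For the tests, counts were added up within a plate, over its 12 wells at time 0 and, for each ligand, over an early window (wells at 0.5 and 1 h), a middle window (wells at 1.5 and 2 h) and a late window (wells at 2.5, 3 and 4 h). A time 0 sum had between 3167670 and 4901235 counts, and a late sum between 314684 and 1876446. No unstimulated time course is in the labels, so a change against time 0 cannot be told apart from an effect of time in the well. Adjusted p-values come from edgeR's quasi-likelihood test, adjusted by Benjamini and Hochberg's method over all 10562 genes tested, at a threshold of 0.05. Log2 changes are on its TMM scale. Their standard error (SE) was worked back from the test, as the size of the change over the square root of the F statistic. It is imprecise for very small changes. In such sums, fewer cells that express a gene and less RNA per cell cannot be told apart. A gene that missed the threshold may still have changed, since 2 plates per group leave little power.

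Before any ligand, no proteasome gene passed the test between KO and WT cells. Myd88 itself did not pass it either, at a log2 difference, KO minus WT, of -1.08 (SE 0.63). The absence of calls at time 0 therefore does not show that the genotypes were alike. Psme2 stood at 257 and 206 CPM in KO plates and 228 and 251 CPM in WT plates, and the genotypes overlapped. Psme1 stood at 171 and 172 CPM in KO plates and 179 and 179 CPM in WT plates. Of 41 members edgeR called 0 between genotypes and 0 had an unadjusted p under 0.05, where 0.275% of all genes were called, and DESeq2 called 0. The core genes had a median difference, KO minus WT, of 0.01 on the log2 scale, from -0.71 (Psmc5) to 0.46 (Psma1). The 31 core genes together took 0.57% and 0.603% of all counts in the KO plates and 0.527% and 0.555% in the WT plates.

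Late in the course, 25 of 984 pairs of a member and a ligand passed over the 24 late comparisons with time 0, 24 higher and 1 lower, and 90 had an unadjusted p under 0.05. Over all genes 2.47% of pairs passed, 1.83% higher and 0.64% lower. The 744 pairs of core genes gave 12 calls (1.61%). Psme2 accounted for 10 of the 25 calls, Psma6 for 6, Psmb6 for 4, Psme1 for 2, and Psma3, Psma7 and Psmd10 for 1 each. The comparisons of a genotype share its time 0 sums. The same test called fewer pairs without either WT plate and more without either KO plate, so the number of calls rests on single plates. The share of pairs over all genes is not given for those runs, so these moves are no result about the members alone. In early wells edgeR called 0 of 984 pairs (30 at an unadjusted p under 0.05), where 0.23% of pairs passed over all genes, and in middle wells 1 of 984 (35 at an unadjusted p under 0.05), where 0.875% passed.

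**Figure D1:**
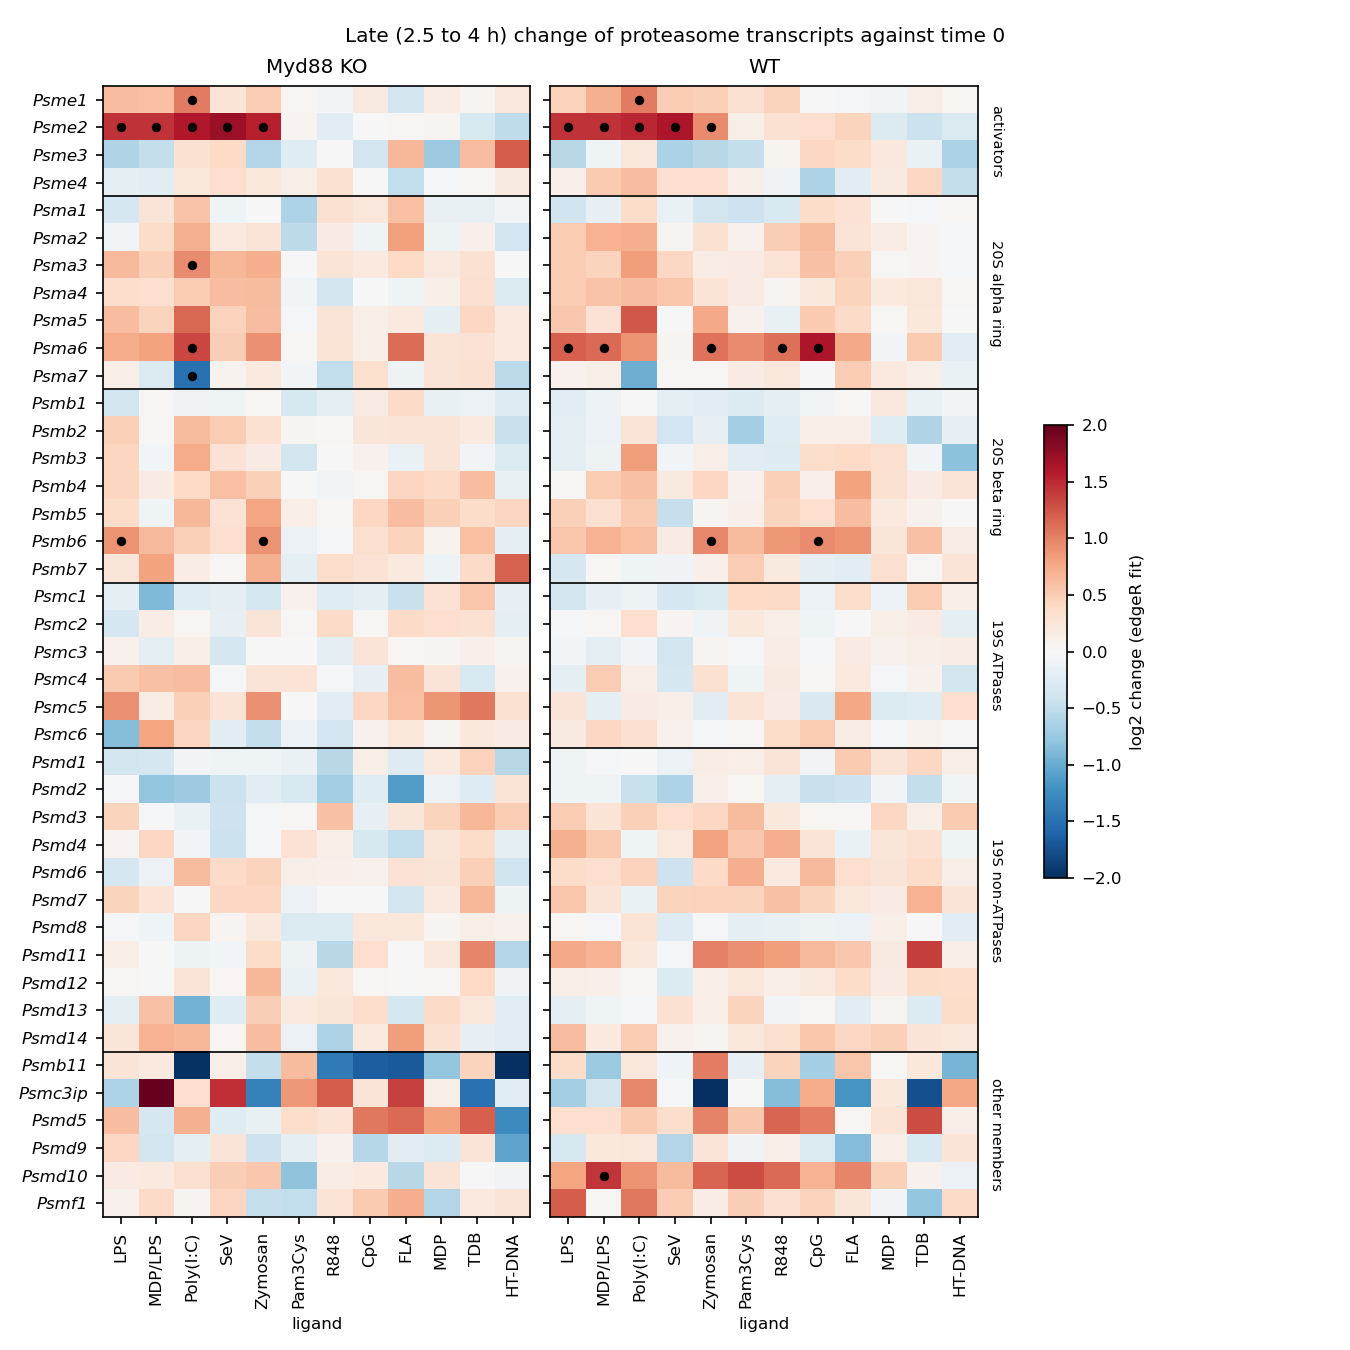
Log2 change (edgeR, TMM scale) of the 41 tested members late (2.5 to 4 h) against time 0, with ligands across, genes down by role, and Myd88 KO at left of WT. Dots mark an adjusted p under 0.05, and Psme2 has dots with 5 ligands in each genotype.

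Psme2, the beta subunit of PA28, rose late with LPS, MDP/LPS, Poly(I:C), SeV and Zymosan in both genotypes and passed with none of the other 7 ligands. With LPS its late sums were 527 and 548 CPM in KO plates, against 257 and 206 CPM at time 0. In WT plates they were 514 and 526 CPM, against 228 and 251 CPM at time 0. Both late sums lay above both time 0 sums in each genotype. For Psme2 with LPS the log2 change was 1.44 (SE 0.26, edgeR adjusted p 1.59e-05) in KO and 1.44 (SE 0.26, edgeR adjusted p 1.02e-05) in WT, where 4.4% of genes were called in KO and 6.3% in WT.

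MDP, a fragment of bacterial cell wall sensed in the cytosol, was given together with LPS in 1 ligand group. MDP/LPS gave Psme2 sums of 567 and 503 CPM in KO plates and 552 and 488 CPM in WT plates. For Psme2 with MDP/LPS the log2 change was 1.45 (SE 0.26, edgeR adjusted p 1.34e-05) in KO and 1.45 (SE 0.26, edgeR adjusted p 7.77e-06) in WT, where 4.7% of genes were called in KO and 6% in WT. Poly(I:C), sensed by Toll-like receptor 3 and by cytosolic receptors that do not use Myd88, gave Psme2 sums of 649 and 614 CPM in KO plates and 613 and 579 CPM in WT plates. For Psme2 with Poly(I:C) the log2 change was 1.60 (SE 0.26, edgeR adjusted p 6.87e-07) in KO and 1.51 (SE 0.26, edgeR adjusted p 4.37e-06) in WT, where 7.95% of genes were called in KO and 5.14% in WT.

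SeV gave Psme2 sums of 562 and 708 CPM in KO plates and 588 and 614 CPM in WT plates. For Psme2 with SeV the log2 change was 1.73 (SE 0.26, edgeR adjusted p 9.31e-08) in KO and 1.62 (SE 0.26, edgeR adjusted p 8.94e-07) in WT, where 3.74% of genes were called in KO and 2.76% in WT. Zymosan gave the widest gap between the genotypes among these 5 ligands, with 579.9 and 611 CPM in KO plates and 396 and 378 CPM in WT plates. For Psme2 with Zymosan the log2 change was 1.55 (SE 0.26, edgeR adjusted p 2.61e-06) in KO and 0.94 (SE 0.26, edgeR adjusted p 0.0118) in WT, where 4.43% of genes were called in KO and 4.71% in WT. The KO minus WT difference of the Zymosan changes was 0.61 (SE 0.36, edgeR adjusted p 1), and no ligand's difference passed for Psme2. In KO all 5 Psme2 calls held under each of the 13 alternative settings, among them either KO plate left out. In WT the calls with LPS, MDP/LPS, Poly(I:C) and SeV were lost without WT replicate 1, where the edgeR adjusted p was 0.168, 0.152, 0.199 and 0.102 at log2 changes of 1.36, 1.33, 1.35 and 1.55. The WT Zymosan call was lost without either WT plate, without the filter on low counts and with the time 0 wells of the Zymosan label alone, at log2 changes of 0.79, 1.07, 0.92 and 0.63 (edgeR adjusted p 0.977, 0.639, 0.0765 and 0.364).

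With the other 7 ligands the late Psme2 sums ran from 144 CPM (HT-DNA, KO replicate 1) to 313 CPM (FLA, WT replicate 2). The log2 changes ran from -0.51 to 0.05 in KO and from -0.43 to 0.45 in WT. Pam3Cys, R848 and CpG act through Toll-like receptors that use Myd88, and in WT cells they called 283, 289 and 221 genes late, with Psme2 changes of 0.11, 0.30 and 0.34 that did not pass. The mean Psme2 change with LPS, MDP/LPS and Zymosan was 1.48 (SE 0.23, edgeR adjusted p 1.52e-07) in KO and 1.28 (SE 0.22, edgeR adjusted p 3.87e-06) in WT, and the WT call was lost without WT replicate 1, at 1.16 (adjusted p 0.104). The ligands of this mean and of the next contrast were chosen with earlier results of these data known, so their p-values are no independent test. Poly(I:C) and SeV, with which Psme2 also rose, are in neither. Late wells with LPS, MDP/LPS and Zymosan also held more Psme2 than late wells with MDP, TDB and HT-DNA. That log2 difference was 1.74 (SE 0.15, edgeR adjusted p 2.79e-18) in KO and 1.61 (SE 0.15, edgeR adjusted p 5.14e-17) in WT. On plain CPM, both late Psme2 sums lay below both time 0 sums with MDP, TDB and HT-DNA in WT. In KO they lay below with HT-DNA and overlapped with MDP and TDB. The contrast therefore also takes in lower Psme2 in the wells it compares against.

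In single wells Psme2 separated from 2.5 to 3 h. With Poly(I:C) in KO replicates 1 and 2 it was 172 and 238 CPM at 2 h, 409 and 315 CPM at 2.5 h, 504 and 590.3 CPM at 3 h and 983 and 1022 CPM at 4 h. In WT replicates 1 and 2 it was 250.1 and 305 CPM at 2 h, 372 and 426 CPM at 2.5 h, 551 and 566 CPM at 3 h and 816 and 704 CPM at 4 h. The 4 h well was the highest of the Poly(I:C) course in all 4 plates. With SeV the 3 h well was the highest, at 651 and 1030 CPM in KO replicates and 626 and 724 CPM in WT replicates, and in WT replicate 1 the 4 h well was within 1 CPM of it. At 3 and 4 h with LPS, MDP/LPS, Poly(I:C) and SeV, Psme2 lay at least 1 log2 unit above the median of its plate in all 4 plates (on log2 of CPM plus 10). The 24 time 0 wells per genotype ran from 108 to 346 CPM in KO (median 226) and from 164 to 334 CPM in WT (median 235).

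**Figure D2:**
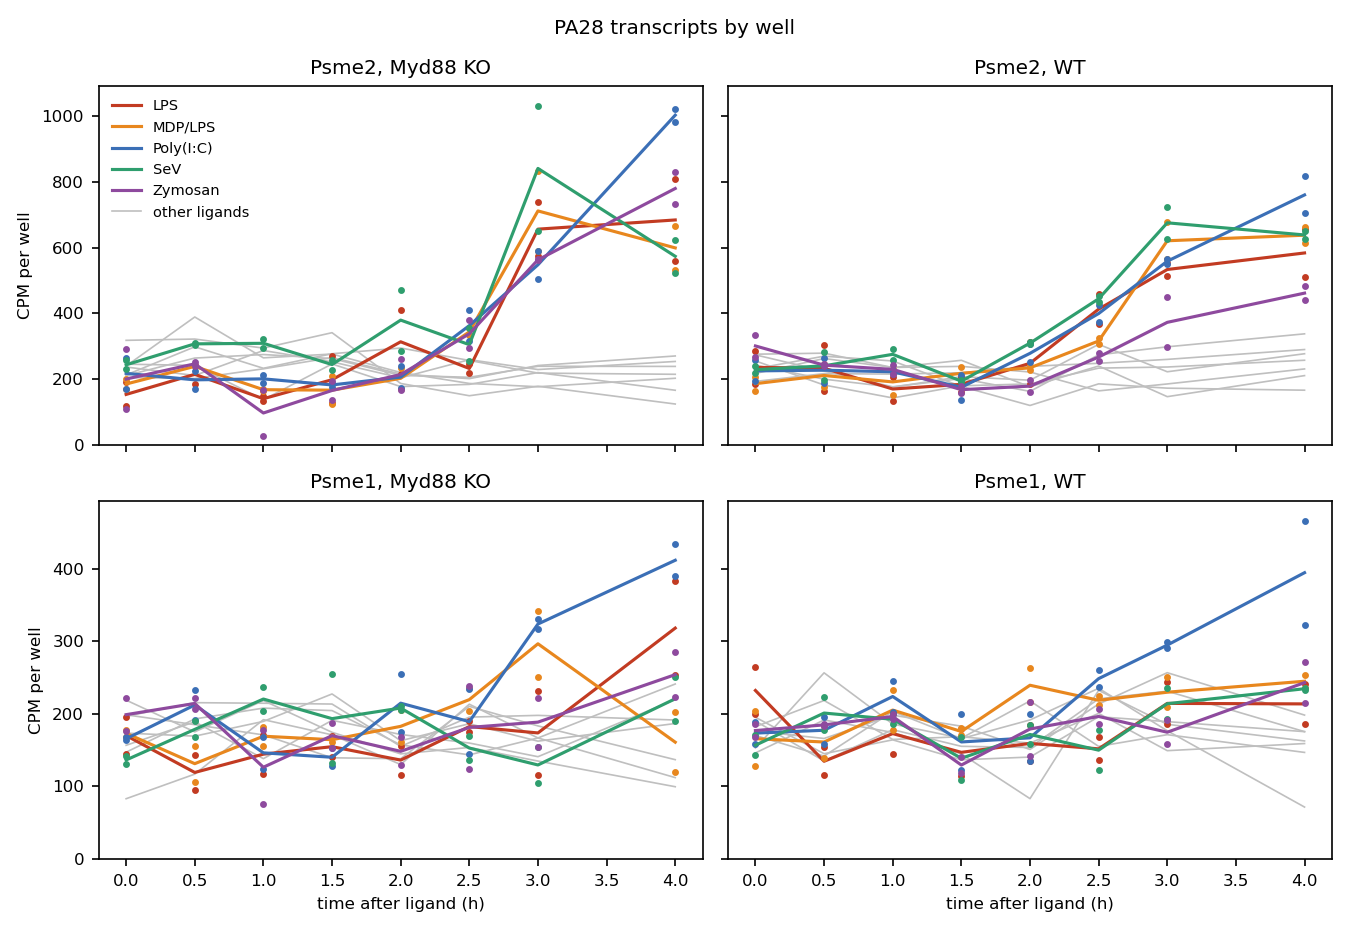
CPM per well of Psme2 and Psme1 over time in hours, with Myd88 KO at left of WT. Lines are means of 2 plates, points are single wells of 5 ligands and grey lines are the other 7 ligands, and the coloured Psme2 lines leave the grey ones after 2 h.

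Psme1, the alpha subunit and partner of Psme2 in PA28, passed with Poly(I:C) and with no other of the 12 ligands. Its late Poly(I:C) sums were 344 and 288 CPM in KO plates, against 171 and 172 CPM at time 0. In WT plates they were 349 and 292 CPM, against 179 and 179 CPM at time 0. All 4 late sums lay above the time 0 sums of their genotype. The log2 change was 1.04 (SE 0.26, edgeR adjusted p 0.00275) in KO and 1.04 (SE 0.26, edgeR adjusted p 0.00371) in WT. The KO call was lost without KO replicate 1, at 0.95 (adjusted p 0.0734). The WT call was lost without WT replicate 1 at 0.85 (adjusted p 1), without WT replicate 2 at 1.20 (adjusted p 0.338) and without the filter at 1.03 (adjusted p 0.0502).

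With LPS the Psme1 sums were 229 and 216 CPM in KO plates and 203 and 189.9 CPM in WT plates. They lay above the time 0 sums, but the log2 changes of 0.61 (SE 0.26, edgeR adjusted p 0.231) in KO and 0.46 (SE 0.26, edgeR adjusted p 0.43) in WT did not pass. With SeV, Psme1 stood at 162 and 180.5 CPM in KO plates and 206 and 204 CPM in WT plates, with log2 changes of 0.28 and 0.50 beside 1.73 and 1.62 for Psme2. The mean Psme1 change with LPS, MDP/LPS and Zymosan was 0.57 (SE 0.22, edgeR adjusted p 0.1) in KO and 0.55 (SE 0.22, edgeR adjusted p 0.107) in WT. Against late MDP, TDB and HT-DNA wells it was 0.43 (SE 0.15, edgeR adjusted p 0.0661) in KO, which missed the threshold, and 0.51 (SE 0.15, edgeR adjusted p 0.0108) in WT, which passed. A DESeq2 Wald test called the mean Psme1 change in both genotypes, at adjusted p of 0.007 in KO and 0.0114 in WT, and it also passed with single wells and with the time 0 wells of the ligand's own label in both genotypes, and in WT without KO replicate 2 (adjusted p 0.0356). The KO contrast with late MDP, TDB and HT-DNA wells passed with DESeq2 (adjusted p 0.0123), with single wells (adjusted p 0.0184) and without Rn45s (adjusted p 0.041). The WT contrast with MDP, TDB and HT-DNA was lost without the filter (adjusted p 0.0642) and without either WT plate (adjusted p 0.203 and 0.53). Psme2b, a copy of Psme2 on chromosome 11, has no row under that symbol in the count table. How reads were shared between near-identical genes is not given in the sources used here, so Psme2 levels are uncertain to that extent.

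The remaining activators were not called in any comparison. Psme3, the nuclear PA28 gamma, stood at 12.4 and 6.77 CPM late with LPS in KO plates, against 18.5 and 15.7 CPM at time 0, and at 9.2 and 12.9 CPM in WT plates, against 15.7 and 24.9 CPM at time 0. Its mean change with LPS, MDP/LPS and Zymosan was -0.55 (SE 0.57, edgeR adjusted p 0.699) in KO and -0.40 (SE 0.55, edgeR adjusted p 0.806) in WT. Psme4, which encodes the activator PA200, stood at 55.2 and 81 CPM in KO plates and 69.4 and 64.4 CPM in WT plates at time 0. Its mean change was -0.06 (SE 0.37, edgeR adjusted p 0.963) in KO and 0.32 (SE 0.37, edgeR adjusted p 0.752) in WT. The SE of Psme3 is wider than that of Psme2, so only a large change could have passed at this depth.

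The core genes were tested for the same mean change. With LPS, MDP/LPS and Zymosan together, 2 of 31 core genes were higher late against time 0 and 0 lower in KO, and 2 higher and 0 lower in WT, where 7.05% of all genes were called in KO (4.04% higher and 3.01% lower) and 9.07% in WT (5.49% and 3.58%). In both genotypes these were Psma6 and Psmb6, and the count is near the share over all genes, so it is no result about the core. The median core change was 0.19 in KO and 0.19 in WT, on the TMM scale, and its sign turned on plain CPM. The median over all genes was -0.19 in KO and -0.16 in WT. On plain CPM the core medians were -0.07 in KO and -0.13 in WT and those of all genes -0.47 and -0.46, and with DESeq2 size factors the core medians were 0.21 and 0.20 and those of all genes -0.17 and -0.15. Psme2 stood above the core median by 1.29 in KO and 1.09 in WT, and Psme1 by 0.38 and 0.36, which is a description without a test. Psme2 had the highest late change of the 41 members in 8 of 24 comparisons, Psma6 in 1 and Psme1 in 0.

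**Figure D3:**
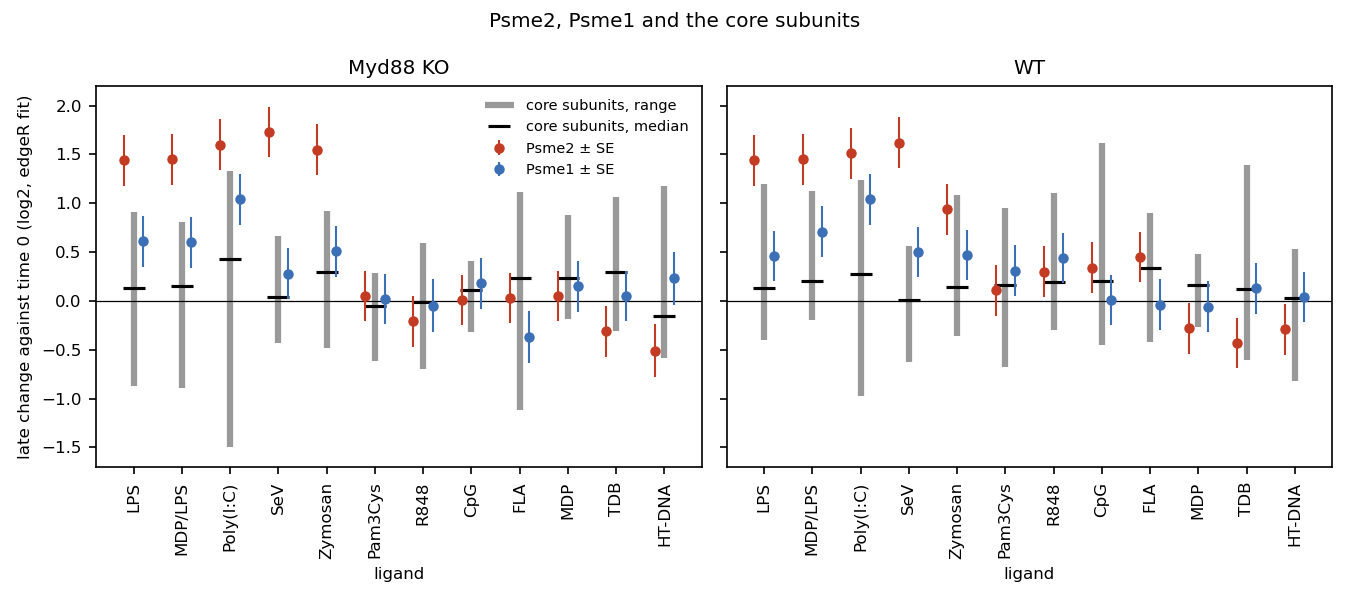
Late log2 change against time 0 (edgeR, TMM scale) by ligand for Psme2 and Psme1, with SE bars, beside the 31 core genes (bar from lowest to highest, dash at the median), with Myd88 KO at left of WT. Psme2 lies above the whole core range with 5 ligands in KO and with LPS, MDP/LPS, Poly(I:C) and SeV in WT.

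Against late wells with MDP, TDB and HT-DNA, 2 core genes were higher and 1 lower in KO, and 1 higher and 0 lower in WT, where 8.91% of all genes were called in KO (5.55% higher and 3.36% lower) and 13.5% in WT (8.07% and 5.44%). The core medians were 0.08 in KO and 0.07 in WT, beside -0.11 and -0.12 over all genes. By role, the medians against time 0 were 0.44 in KO and 0.45 in WT for alpha genes, 0.36 and -0.05 for beta genes, -0.01 and -0.04 for ATPases, and 0.14 and 0.29 for non-ATPases.

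Among the alpha genes Psma6, a structural subunit of the alpha ring, was called most often. It lies on chromosome 12 from 55384222 to 55418454 on the plus strand, 70956 bases from Nfkbia, the gene of an NF-kB inhibitor. With CpG its late sums were 105 and 110.3 CPM in KO plates, against 97 and 106 CPM at time 0. In WT plates they were 406 and 245 CPM, against 122 and 119 CPM at time 0. The WT late sums lay above both WT time 0 sums, and the KO sums overlapped. The log2 change was 0.11 (SE 0.32, edgeR adjusted p 1) in KO and 1.62 (SE 0.32, edgeR adjusted p 0.000298) in WT, with 0.00947% and 2.09% of genes called. The KO minus WT difference of -1.52 (SE 0.46, edgeR adjusted p 0.129) did not pass, in a comparison that called 0.54% of genes.

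Psma6 also rose in WT with LPS (207 and 235 CPM, log2 change 1.20 (SE 0.32, edgeR adjusted p 0.00742)). MDP/LPS in WT gave 244 and 173 CPM, log2 change 1.13 (SE 0.32, edgeR adjusted p 0.0139). R848 in WT gave 214 and 253 CPM, log2 change 1.10 (SE 0.32, edgeR adjusted p 0.0332), in a comparison that called 2.74% of genes. Zymosan in WT gave 188 and 242 CPM, log2 change 1.08 (SE 0.32, edgeR adjusted p 0.0259). In KO, Psma6 passed with Poly(I:C) (210.5 and 251 CPM, log2 change 1.33 (SE 0.32, edgeR adjusted p 0.00185)), and the WT Poly(I:C) sums were 236 and 155 CPM. The mean change with LPS, MDP/LPS and Zymosan was 0.82 (SE 0.27, edgeR adjusted p 0.0451) in KO and 1.14 (SE 0.28, edgeR adjusted p 0.00159) in WT. Against late MDP, TDB and HT-DNA wells it was 0.57 (SE 0.19, edgeR adjusted p 0.0459) in KO and 1.05 (SE 0.19, edgeR adjusted p 4.29e-06) in WT. Each single-ligand WT call of Psma6 was lost without either WT plate; with CpG the values were 1.16 (adjusted p 1) without WT replicate 1 and 1.97 (adjusted p 0.178) without WT replicate 2. The mean change with LPS, MDP/LPS and Zymosan was lost in WT without either WT plate and in KO in 6 of 13 settings, and the contrast with late MDP, TDB and HT-DNA wells was lost in WT without WT replicate 2 and in KO in 6 of 12. The KO call with Poly(I:C) held under all 13 alternative settings.

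Psma7, the most abundant core transcript, went the other way with Poly(I:C). Its late sums were 327 and 349.8 CPM in KO plates, against 949 and 1169 CPM at time 0. In WT plates they were 418 and 501 CPM, against 964 and 1099 CPM at time 0. All 4 late sums lay below the time 0 sums. The log2 change was -1.49 (SE 0.41, edgeR adjusted p 0.00959) in KO, which passed, and -0.97 (SE 0.40, edgeR adjusted p 0.194) in WT, which did not. The wells were low already at 0.5 h, at 363 and 642 CPM in KO replicates 1 and 2 and 570.4 and 626 CPM in WT replicates 1 and 2. In the middle window the KO change was -1.44 (SE 0.41, edgeR adjusted p 0.0348), the 1 member call before 2.5 h, where 2.4% of genes were called. The late KO call was lost when either WT plate was left out. A WT plate enters this KO test through the shared spread, the filter, the scaling and the adjustment over genes. Single time 0 wells of Psma7 ran from 228 to 1450 CPM in KO and from 130 to 1430 CPM in WT, and the late HT-DNA sum of KO replicate 1 was also low, at 252 CPM. Late Poly(I:C) wells had a median of 550846 counts and 5.22% ribosomal Rn45s transcript, and the other late wells 342561 counts and 8.61%; their part in the result was not tested.

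Psma3, another alpha subunit, passed with Poly(I:C) in KO, at 339.5 and 304 CPM late against 183 and 188 CPM at time 0, a log2 change of 0.95 (SE 0.29, edgeR adjusted p 0.0239). In WT it stood at 339 and 260.3 CPM late against 206 and 180.3 CPM at time 0, a change of 0.83 (SE 0.29, edgeR adjusted p 0.084). The KO call was lost when any 1 plate was left out, with adjusted p of 0.128 and 0.0518 without the KO plates. Psma4 had mean changes with LPS, MDP/LPS and Zymosan of 0.44 (SE 0.23, edgeR adjusted p 0.299) in KO and 0.45 (SE 0.23, edgeR adjusted p 0.267) in WT. Psma1, Psma2, Psma4 and Psma5 passed in no comparison.

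**Figure D4:**
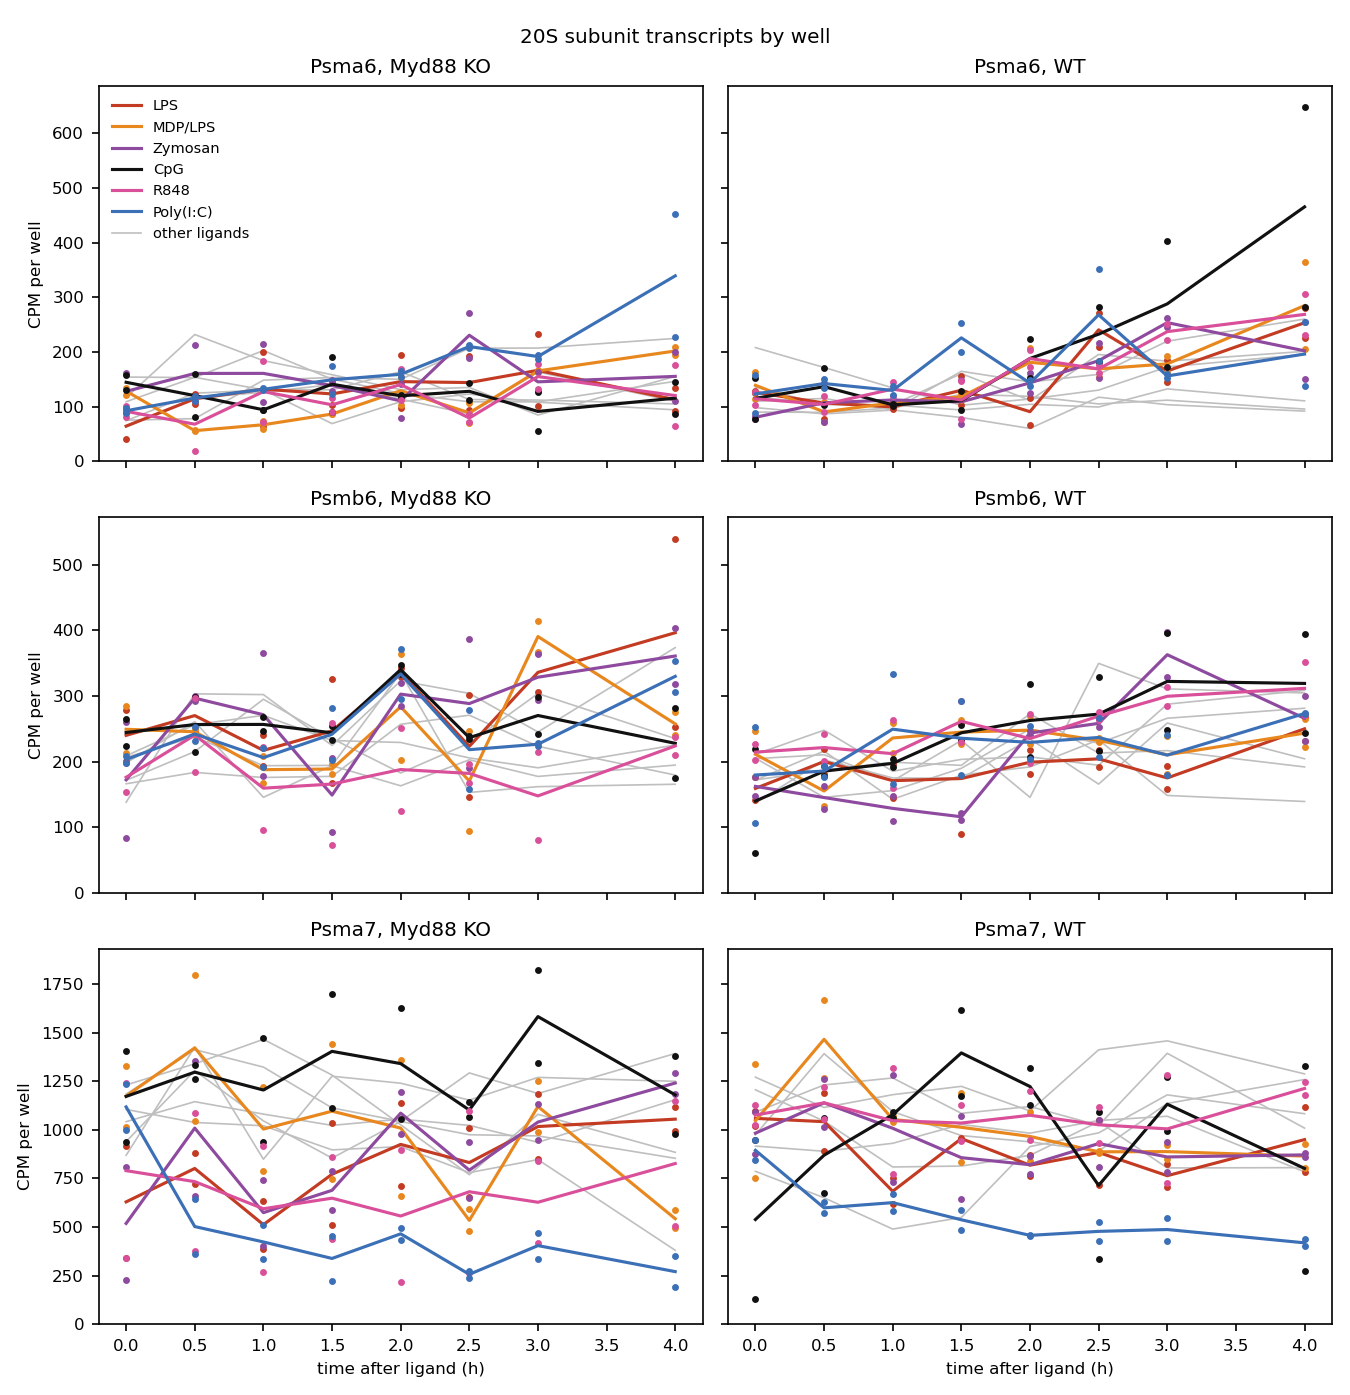
CPM per well of the 20S genes Psma6, Psmb6 and Psma7 over time in hours, with Myd88 KO at left of WT. Lines are means of 2 plates, points are single wells of the coloured ligands and grey lines are the other ligands, and Psma7 with Poly(I:C) is low from 0.5 h in both genotypes.

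Psmb6, the beta subunit with the caspase-like site of the standard core, passed in 4 late comparisons. With Zymosan its late sums were 299.6 and 358 CPM in KO plates, against 204 and 198 CPM at time 0. In WT plates they were 320 and 268 CPM, against 191 and 169 CPM at time 0. All 4 late sums lay above the time 0 sums. The log2 change was 0.90 (SE 0.27, edgeR adjusted p 0.0304) in KO and 0.96 (SE 0.27, edgeR adjusted p 0.0162) in WT. It also passed with LPS in KO (283 and 359 CPM, log2 change 0.90 (SE 0.27, edgeR adjusted p 0.0318)) and with CpG in WT (338 and 267 CPM, log2 change 0.94 (SE 0.27, edgeR adjusted p 0.0369)). The mean change with LPS, MDP/LPS and Zymosan was 0.82 (SE 0.23, edgeR adjusted p 0.0108) in KO and 0.73 (SE 0.23, edgeR adjusted p 0.0226) in WT. Against late MDP, TDB and HT-DNA wells it was 0.66 (SE 0.16, edgeR adjusted p 0.00181) in KO and 0.41 (SE 0.16, edgeR adjusted p 0.0755) in WT. The KO mean change was lost without either WT plate (adjusted p 0.0635 and 0.0628), without the filter (adjusted p 0.0567) and without KO replicate 2, at 0.61 (adjusted p 0.25). Without KO replicate 2 the other KO values were 0.69 (adjusted p 0.363) with LPS, 0.76 (adjusted p 0.328) with Zymosan and 0.44 (adjusted p 0.22) against late MDP, TDB and HT-DNA wells, and the WT calls were lost without either WT plate. The other 6 beta genes passed in no comparison, with Psmb4 at mean changes of 0.36 (SE 0.24, edgeR adjusted p 0.474) in KO and 0.31 (SE 0.24, edgeR adjusted p 0.563) in WT.

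The immunoproteasome genes, which replace the cutting beta subunits under interferon and lay outside the rule, are given for comparison. With LPS, MDP/LPS and Zymosan together, Psmb10 had a mean late change of 1.67 (SE 0.29, edgeR adjusted p 3.07e-06) in KO and 1.26 (SE 0.28, edgeR adjusted p 0.000426) in WT. Psmb8 had 1.12 (SE 0.26, edgeR adjusted p 0.000892) in KO and 0.94 (SE 0.25, edgeR adjusted p 0.006) in WT. The WT calls were lost without WT replicate 1, at 0.82 (adjusted p 0.591) for Psmb10 and 0.91 (adjusted p 0.461) for Psmb8, and for Psmb8 also without WT replicate 2, at 1.00 (adjusted p 0.399). Psmb9, the counterpart of Psmb6, stood at 15.4 CPM over all wells and its changes of 1.31 (SE 0.66, edgeR adjusted p 0.275) in KO and 0.70 (SE 0.63, edgeR adjusted p 0.652) in WT against time 0 did not pass. Against late MDP, TDB and HT-DNA wells Psmb9 passed in KO, at 1.74 (SE 0.51, edgeR adjusted p 0.0133), and not in WT, at 0.95 (SE 0.47, edgeR adjusted p 0.196). The KO call was lost without KO replicate 1, at 1.59 (adjusted p 0.129), and without KO replicate 2, at 1.86 (adjusted p 0.0691). With SeV, Psmb10 sums were 289 and 223 CPM in KO plates, against 120.2 and 91.1 CPM at time 0, and 195 and 219 CPM in WT plates, against 79.4 and 131 CPM at time 0.

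None of the 6 ATPases of the 19S cap passed against time 0. Psmc1 had mean changes with LPS, MDP/LPS and Zymosan of -0.48 (SE 0.30, edgeR adjusted p 0.443) in KO and -0.27 (SE 0.30, edgeR adjusted p 0.734) in WT. Against late MDP, TDB and HT-DNA wells it was lower in KO, at -0.70 (SE 0.23, edgeR adjusted p 0.04), and -0.45 (SE 0.23, edgeR adjusted p 0.21) in WT did not pass. Without KO replicate 2 the KO value was -0.38 (adjusted p 0.557). Among those 6 ligand groups in KO plates the lowest sums were 64.7 and 57.5 CPM with MDP/LPS and the highest 144 and 244 CPM with TDB, beside 127 and 143 CPM at time 0. Psmc6 had mean changes of -0.19 (SE 0.32, edgeR adjusted p 0.848) in KO and 0.19 (SE 0.32, edgeR adjusted p 0.853) in WT.

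None of the 11 non-ATPase genes of the 19S cap passed in any comparison between windows, ligands or genotypes. Psmd11, a scaffold of the lid, had mean changes with LPS, MDP/LPS and Zymosan of 0.16 (SE 0.39, edgeR adjusted p 0.903) in KO and 0.81 (SE 0.40, edgeR adjusted p 0.254) in WT. Psmd7, partner of the deubiquitinase Psmd14, had 0.39 (SE 0.22, edgeR adjusted p 0.352) in KO and 0.42 (SE 0.22, edgeR adjusted p 0.274) in WT. Psmd11, singled out after its values were seen, was high in the 4 h well with TDB, at 616 and 585 CPM in KO replicates 1 and 2 and 733 and 633 CPM in WT replicates 1 and 2. That well lay 1.32 to 1.74 log2 units above the plate median in the 4 plates. Over the late window its change with TDB was 0.98 (SE 0.47, edgeR adjusted p 1) in KO and 1.39 (SE 0.48, edgeR adjusted p 0.797) in WT.

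Psmd2, a large scaffold of the 19S base, differed among wells at time 0. The 12 time 0 wells of a plate each carry a ligand label, and in the well labelled Zymosan Psmd2 stood at 681 and 785 CPM in KO replicates 1 and 2 and 586 and 713 CPM in WT replicates 1 and 2. The counts behind these values were 267 and 131 in KO and 302 and 238 in WT. The other 95 wells of a plate, at all times, reached at most 347 and 295 CPM in KO and 324 and 304 CPM in WT, with medians of 114 and 124 CPM in KO and 144 and 164 CPM in WT. An edgeR test over the 12 labels among time 0 wells called Psmd2 and none of the other members, 1 of 39 tested (adjusted p 9.54e-08, with 0.888% of 7434 genes called). Psmd2 was known from earlier results of these data to differ, so this p-value is no independent support. The cause was not tested. Psmd2 enters the pooled time 0 sums with these wells, and its mean changes with LPS, MDP/LPS and Zymosan were -0.35 (SE 0.26, edgeR adjusted p 0.547) in KO and -0.02 (SE 0.26, edgeR adjusted p 0.988) in WT.

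**Figure D5:**
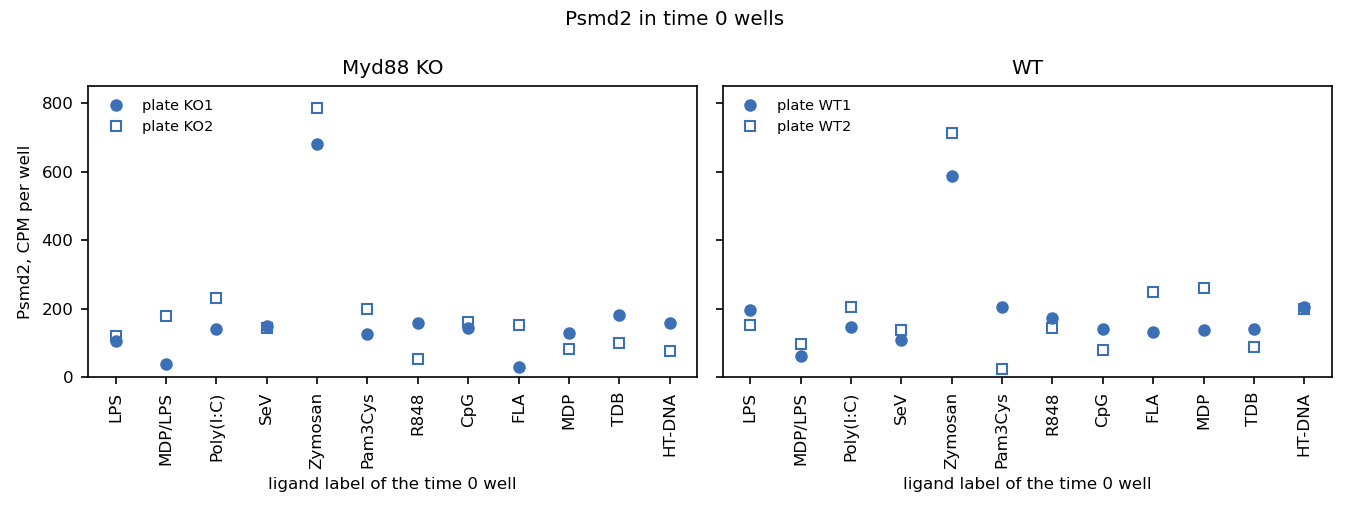
Psmd2 CPM in each time 0 well by ligand label, with Myd88 KO at left of WT and a symbol for each of the 2 plates of a genotype. The wells labelled Zymosan stand at 586 to 785 CPM in the 4 plates, above every other well.

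Among the other members Psmd10 (gankyrin, an assembly chaperone of the 19S base, on chromosome X) passed in WT with MDP/LPS. Its late MDP/LPS sums were 53.1 and 64 CPM in KO plates, against 51.6 and 69.8 CPM at time 0, and 85.3 and 134 CPM in WT plates, against 48.6 and 54.9 CPM at time 0. The WT late sums lay above the WT time 0 sums, and the KO sums overlapped. The log2 change was 0.19 (SE 0.46, edgeR adjusted p 0.925) in KO and 1.43 (SE 0.45, edgeR adjusted p 0.0316) in WT. The mean change with LPS, MDP/LPS and Zymosan was 0.30 (SE 0.37, edgeR adjusted p 0.763) in KO and 1.13 (SE 0.38, edgeR adjusted p 0.042) in WT, and against late MDP, TDB and HT-DNA wells the WT value was 0.98 (SE 0.27, edgeR adjusted p 0.004). Without WT replicate 1 these WT calls were lost, at 1.66 (adjusted p 0.564) with MDP/LPS, and likewise without WT replicate 2, at 1.21 (adjusted p 1). With Pam3Cys the late sums were 21.1 and 49.1 CPM in KO plates and 142 and 98.3 CPM in WT plates, and the KO minus WT difference of -2.11 (SE 0.64, edgeR adjusted p 0.132) did not pass. Psmd5, Psmd9, Psmf1, Psmb11 and Psmc3ip, at 17.6, 17.1, 13.8, 12 and 5.68 CPM over all wells, passed in no comparison. The mean change with LPS, MDP/LPS and Zymosan was 0.04 (SE 0.60, edgeR adjusted p 0.988) in KO and 0.56 (SE 0.60, edgeR adjusted p 0.723) in WT for Psmd5, which helps to assemble the 19S base. For Psmc3ip it was 0.12 (SE 1.33, edgeR adjusted p 0.982) in KO and -1.41 (SE 1.02, edgeR adjusted p 0.525) in WT, and for Psmb11 0.00 (SE 0.63, edgeR adjusted p 1) in KO and 0.21 (SE 0.70, edgeR adjusted p 0.928) in WT.

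No member's late change differed between KO and WT past the threshold. Over 12 ligands edgeR called 0 of 492 pairs of a member and a ligand (8 at an unadjusted p under 0.05), where 0.148% of pairs passed over all genes. DESeq2 called 2 of those pairs, and edgeR called some when either KO plate was left out. The share over all genes is not given for those runs. For the mean change with LPS, MDP/LPS and Zymosan, 0 of 41 members passed edgeR, 0 had an unadjusted p under 0.05, DESeq2 called 0, and 0.0568% of genes were called by edgeR. The core genes had a median KO minus WT difference of 0.04, from -0.65 to 0.71. For Psme2 the difference was 0.20 (SE 0.29, edgeR adjusted p 1) and for Psme1 0.02 (SE 0.30, edgeR adjusted p 1). A difference that misses the threshold does not show that the genotypes were alike.

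Of 23 further genes of the pathway (assembly chaperones, ubiquitin-handling proteins, regulators and ubiquitin genes), 0 rose and 1 fell in KO with LPS, MDP/LPS and Zymosan, and 0 rose and 0 fell in WT, where 7.05% of all genes were called in KO and 9.07% in WT. The gene that fell was Ubb, a polyubiquitin gene, at -0.49 (SE 0.16, edgeR adjusted p 0.0469). Against late MDP, TDB and HT-DNA wells 1 was lower in KO, Zfand5, a zinc finger protein that binds the proteasome, at -0.82 (SE 0.18, edgeR adjusted p 0.000434), and 0 in WT, where 8.91% of all genes were called in KO and 13.5% in WT. Ubb and Zfand5 were picked out after their values were seen. The list's medians against time 0 were -0.04 in KO and 0.01 in WT, beside -0.19 and -0.16 over all genes.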

How the data were processed

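The counts are whole-number 3′ tag counts per gene and well, which the authors deposited as 1 table of 23481 genes and 384 wells. Per the submitters' processing notes, BWA and mm10 were used; its version, the annotation, the counting program and any collapsing of tags were not found in these sources. Members, lists and the ligands grouped for the mean change and for the contrast with MDP, TDB and HT-DNA were chosen with earlier results of these data known. Wells were grouped by the genotype, replicate number (read as a plate), ligand and time in the labels, and summed to 148 plate sums in 74 groups.

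Tests used edgeR 4.0.16 under R 4.3.3 (filterByExpr with a minimum count of 10, TMM, robust quasi-likelihood fit over all groups with no plate term, Benjamini-Hochberg adjustment over 10562 genes within each comparison). The null model of a test was fitted on the samples its contrast touches. Alternatives were DESeq2 1.42.0, its size factors, no filter, each plate left out, a plate block, single wells, other time 0 wells, 4 h only, no shallow wells and no Rn45s. On simulated counts with an assumed spread, the late WT test with LPS called 1.49% of 67 genes changed 2-fold and 55.2% of 67 changed 4-fold. For the WT mean change with LPS, MDP/LPS and Zymosan the shares were 11.9% and 86.6%. For the WT contrast with MDP, TDB and HT-DNA they were 46.3% and 100%. The simulation changed 67 of 9524 genes at each of 1.5-, 2- and 4-fold. The real comparisons called 6.3%, 9.07% and 13.5% of genes, so the simulated threshold on p was stricter. The simulated shares therefore do not give the power in these data. A member that did not pass may still have changed. CPM, medians and figures used Python 3.11.15, pandas 2.3.3 and numpy 2.4.6. Genes named with values are the activators Psme1 to Psme4, members past the threshold and, per role, the 2 with the smallest p for the mean late WT change with LPS, MDP/LPS and Zymosan, plus Psmd2 and the immunoproteasome genes. Depth per well limits low genes, whose SE is wide.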

Additional observations from a re-analysis of the deposited data

How the results depend on the processing

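With 1 well as the unit in place of plate sums, which counts wells of a plate as replicates, 99 pairs of a member and a ligand were called late instead of 25, 8 members in KO and 11 in WT for the mean change with LPS, MDP/LPS and Zymosan (where 25.5% and 27.2% of all genes were called), 2 between genotypes at time 0 (where 6.72% were), and 4 pairs for the genotype difference of the late changes. DESeq2 called 37 late pairs, 5 members for the mean change in KO, where edgeR called 3, and 2 pairs for the genotype difference, where edgeR called 0. Over all genes DESeq2 called 910 for that KO mean change and edgeR 745. For pairs, the share over all genes is not given under these settings, so their counts are no result about the members alone. Without the filter on low counts the KO mean change called 1 member, where 4.85% of all genes were called. With only a ligand label's own time 0 wells the mean change called 6 in KO and 7 in WT, where the pooled time 0 gave 4 in WT. The share over all genes rose too, to 10.2% in KO and 13.2% in WT, from 7.05% and 9.07%. With 4 h wells only, the contrast with MDP, TDB and HT-DNA called 7 in WT, against 4 over the late window. Over all genes 13.1% were called with 4 h wells only and 13.5% over the late window. The distance of Psme2 above the core median became 1.71 in KO and 1.32 in WT with 4 h wells only, and 1.48 in KO with the label's own time 0 wells. That of Psme1 in WT became 0.39 with single wells, 0.23 with own time 0 wells, 0.50 with 4 h wells only and 0.39 without wells under 150000 counts. These distances were defined after seeing the data.

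Leaving out 1 plate at a time gave 7 to 42 late pairs, 1 to 2 members in KO and 0 to 6 in WT for the mean change, 2 to 6 in KO and 1 to 7 in WT for the contrast with MDP, TDB and HT-DNA, 0 to 4 pairs for the genotype difference, and Psme1 distances of 0.18 to 0.56 in KO and 0.36 to 0.38 in WT. Over all genes the share called moved too, over 4.28% to 6.66% in KO and 1.74% to 13.1% in WT for the mean change and over 5.5% to 10.3% in KO and 4.35% to 17.5% in WT for the contrast. The lowest late count came without WT replicate 1 and the highest without KO replicate 2, and the groups left with 1 sample were assumed to vary like those of the other genotype. The replicate block for plate within genotype gave 26 late pairs and moved none of 52 named results across the threshold. Deviations of sums of a plate had a median correlation of 0.02 in KO and 0.014 in WT over 666 pairs each, and at most 0.2 and 0.184. Counting noise lowers such correlations, so they cannot show that the sums of a plate share no effect. Of the 52 named results, 14 lost their call without the filter, 7 with 4 h wells only, 7 of 38 compared with the label's own time 0 wells and 1 without Rn45s. Calls were also lost when 1 plate was left out, more of them without a WT plate than without a KO plate. None changed direction under any setting compared. The cause of these moves was not tested, beyond the fewer samples. The contrast with MDP, TDB and HT-DNA does not use time 0, so its members were not compared under the label's own time 0 wells. That fit called 6.71% of all genes in KO and 10.7% in WT for this contrast, against 8.91% and 13.5% in the main fit. Low counts limit what can pass for Psme3, and widen the SE of Psmb9 and Psmd10.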
